A study of Mus musculus with 53 samples.

Results

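Collagens and the other proteins of the extracellular matrix form the scaffold that surrounds the cells of the liver. The 41 genes described here are the rows that carry a fixed list of 41 symbols in all 3 deposited count tables, out of 36410 genes that the tables share. The list holds 7 fibrillar collagens, 7 fibril-associated, beaded-filament and network collagens, 10 basement membrane genes, 6 genes of elastic fibres and microfibrils, 4 proteoglycans, 5 matricellular genes and 2 adhesive glycoproteins. Members were named by their place in the matrix.

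The series measured RNA in whole livers of male C57BL/6J mice under 3 challenges, in wild-type littermates and in mice labelled as Bmp8b knockout, with 53 libraries in 9 groups. In the diet experiment, mice that were 9 weeks old at the start were fed for 32 weeks, with 9 wild-type mice on the low-fat control diet, 7 wild-type mice on Western diet and 7 labelled knockout mice on Western diet. In the CCl4 experiment, mice 16 weeks old were injected into the abdomen with 2 microlitres per gram of body weight and killed 3 days later, with 6 wild-type mice given olive oil, 4 wild-type mice given CCl4 mixed with olive oil and 6 labelled knockout mice given that mixture. In the hepatectomy experiment, mice 16 weeks old had part of the liver removed, and the data hold the liver resected on day 0 from 5 wild-type mice and the liver on day 3 from 5 wild-type and 4 labelled knockout mice. The day 0 and day 3 wild-type livers carry the same mouse numbers, and the labels do not say whether they came from the same animals. No labelled knockout mice without a challenge are among the samples, and how the knockout was made is not given in the sources used here.

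Total counts per library were 8963187 to 15196537 in the diet experiment, 2661699 to 6364414 in the CCl4 experiment and 2450358 to 6914274 in the hepatectomy experiment. All 10 hepatocyte markers listed were detected in every group, and their summed level was between 65313 and 165575 CPM (counts scaled to a common library total) in the 53 livers. Bmp8b itself was near the limit of detection, with 0 to 3 counts per library on low-fat diet, 7 to 30 counts in wild-type and 6 to 33 counts in labelled knockout livers on Western diet. After CCl4 the counts were 0 to 10 in wild-type and 1 to 15 in labelled knockout livers, and on day 3 after hepatectomy 1 to 5 and 4 to 9. The ranges overlapped and the median CPM was higher in the labelled knockout group in all 3 experiments, so Bmp8b counts over the whole gene do not check the knockout label.

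Fibrillar collagens assemble into the rope-like fibrils that give scar its strength, and basement membranes are thin sheets of type IV collagen, laminin, nidogen and perlecan under epithelium and around vessels. In liver, hepatic stellate cells that turn into myofibroblasts are known as the main source of fibrillar collagen during fibrosis, whereas hepatocytes secrete plasma fibronectin. Proteoglycans and matricellular proteins bind to the scaffold and to growth factors, and are known to steer how fibrils form and how cells respond to them. In whole liver, more cells of a type and more RNA per cell cannot be told apart.

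Promoter sequences are shown for 3 fibrillar collagens that went different ways, Col3a1, which rose in all 3 challenges, and Col5a3 and Col27a1, which include the falls of the class. Each is the 250 bases before the RefSeq start of the gene on GRCm38.p6, written 5′ to 3′ on the strand of the gene, at chr1:45311288-45311537 (plus strand) for Col3a1, chr9:20815068-20815317 (minus strand) for Col5a3 and chr4:63215162-63215411 (plus strand) for Col27a1. No annotated GENCODE exon lies in these windows, although the GENCODE gene of Col27a1 begins upstream of its window. Capitals mark TATAAA in Col3a1, CCAAT and CCGCCC in Col5a3 and GGGCGG in Col27a1, where CCGCCC is GGGCGG read on the opposite strand.
Col3a1: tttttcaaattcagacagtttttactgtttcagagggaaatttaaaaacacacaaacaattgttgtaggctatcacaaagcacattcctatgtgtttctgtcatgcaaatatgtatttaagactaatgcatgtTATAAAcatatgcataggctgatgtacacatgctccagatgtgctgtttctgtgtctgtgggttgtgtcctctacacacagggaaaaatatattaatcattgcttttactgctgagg
Col5a3: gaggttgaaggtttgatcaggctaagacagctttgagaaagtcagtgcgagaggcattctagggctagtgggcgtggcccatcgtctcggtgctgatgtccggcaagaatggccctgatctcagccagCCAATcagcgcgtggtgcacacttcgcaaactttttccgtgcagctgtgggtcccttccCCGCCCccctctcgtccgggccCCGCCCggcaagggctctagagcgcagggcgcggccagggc
Col27a1: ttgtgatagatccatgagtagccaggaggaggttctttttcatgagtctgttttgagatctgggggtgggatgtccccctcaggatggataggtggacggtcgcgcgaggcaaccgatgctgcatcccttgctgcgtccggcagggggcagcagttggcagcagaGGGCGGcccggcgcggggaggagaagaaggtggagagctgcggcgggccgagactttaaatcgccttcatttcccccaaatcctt
The Col3a1 window was 35.2% G and C with 0 CpG pairs, the Col5a3 window 62.8% with 17 and the Col27a1 window 59.6% with 15. RefSeq windows that run past the start by 50 further bases were found for 29 of the 41 members, which had 34 such windows. In these and in all other promoters, only the 250 bases before the start were searched and used for G and C content. Searched on both strands, GGGCGG stood in 21 of these 34 windows (61.76%), against 32.74% of all 32851 promoters, beside a median G and C content of 59.2% against 52.4%. CCAAT stood in 11 windows (32.35%, against 33.85% of all), TATAAA in 5 (14.71%, against 12.37%) and TGANTCA in 2 (5.882%, against 6.749%). These are letter matches with no test, and none of them was measured as a bound site.

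On Western diet, 35 of the 41 members were higher than on low-fat diet in wild-type livers and 3 were lower by the quasi-likelihood test of edgeR, called at a p under 0.05 after Benjamini-Hochberg adjustment over all genes. Over all 13005 genes tested, 20.4% were called higher and 17% lower, so the share of members called higher was well above the background and the share called lower was below it. The members were chosen with earlier results of these data known, so their shares here and below describe the list and carry no test. After CCl4, 19 of the 39 members tested were higher than after olive oil and 3 were lower, against a background of 11.1% higher and 8.87% lower. On day 3 after hepatectomy, 17 of the 36 members tested were higher than on day 0 and 1 was lower, against 9.87% higher and 7.5% lower. The median log2 fold change was 1.22, 1.08 and 1.12 over the members tested in the diet, CCl4 and hepatectomy comparisons, against -0.02, 0.05 and -0.00 over all genes. With libraries scaled by their totals alone, the all-gene median moved to 0.14 on Western diet and 0.30 after CCl4, the all-gene calls went from 2656 higher and 2213 lower to 4115 and 783 on Western diet and from 1296 and 1035 to 2470 and 538 after CCl4, and the members called became 37 higher and 1 lower and 24 higher and 2 lower. Col8a1 and Mfap4 did not pass the filter on low counts in the CCl4 and hepatectomy tables, nor did Vcan, Thbs1 and Tnc in the hepatectomy table.

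By member, 13 genes were called higher in all 3 challenges: Col1a1, Col1a2, Col3a1, Col5a1, Col5a2, Col6a1, Col4a1, Col4a2, Lamc1, Nid1, Fbn1, Lum and Sparc. Col27a1 was called lower in all 3, and Col5a3 was called lower on Western diet and after CCl4. A further 10 members were called higher on Western diet and in neither other comparison, among them the small proteoglycans Dcn and Bgn. The diet experiment had more libraries and higher total counts, so a call there alone does not show a different response. In the joint fit below, only Col14a1 and Efemp1 of these 10 differed in response between Western diet and CCl4. None of them differed between Western diet and hepatectomy. Col15a1 and Dpt were called in no comparison, with adjusted p-values on Western diet of 0.087 and 0.0614.

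**Figure D1:**
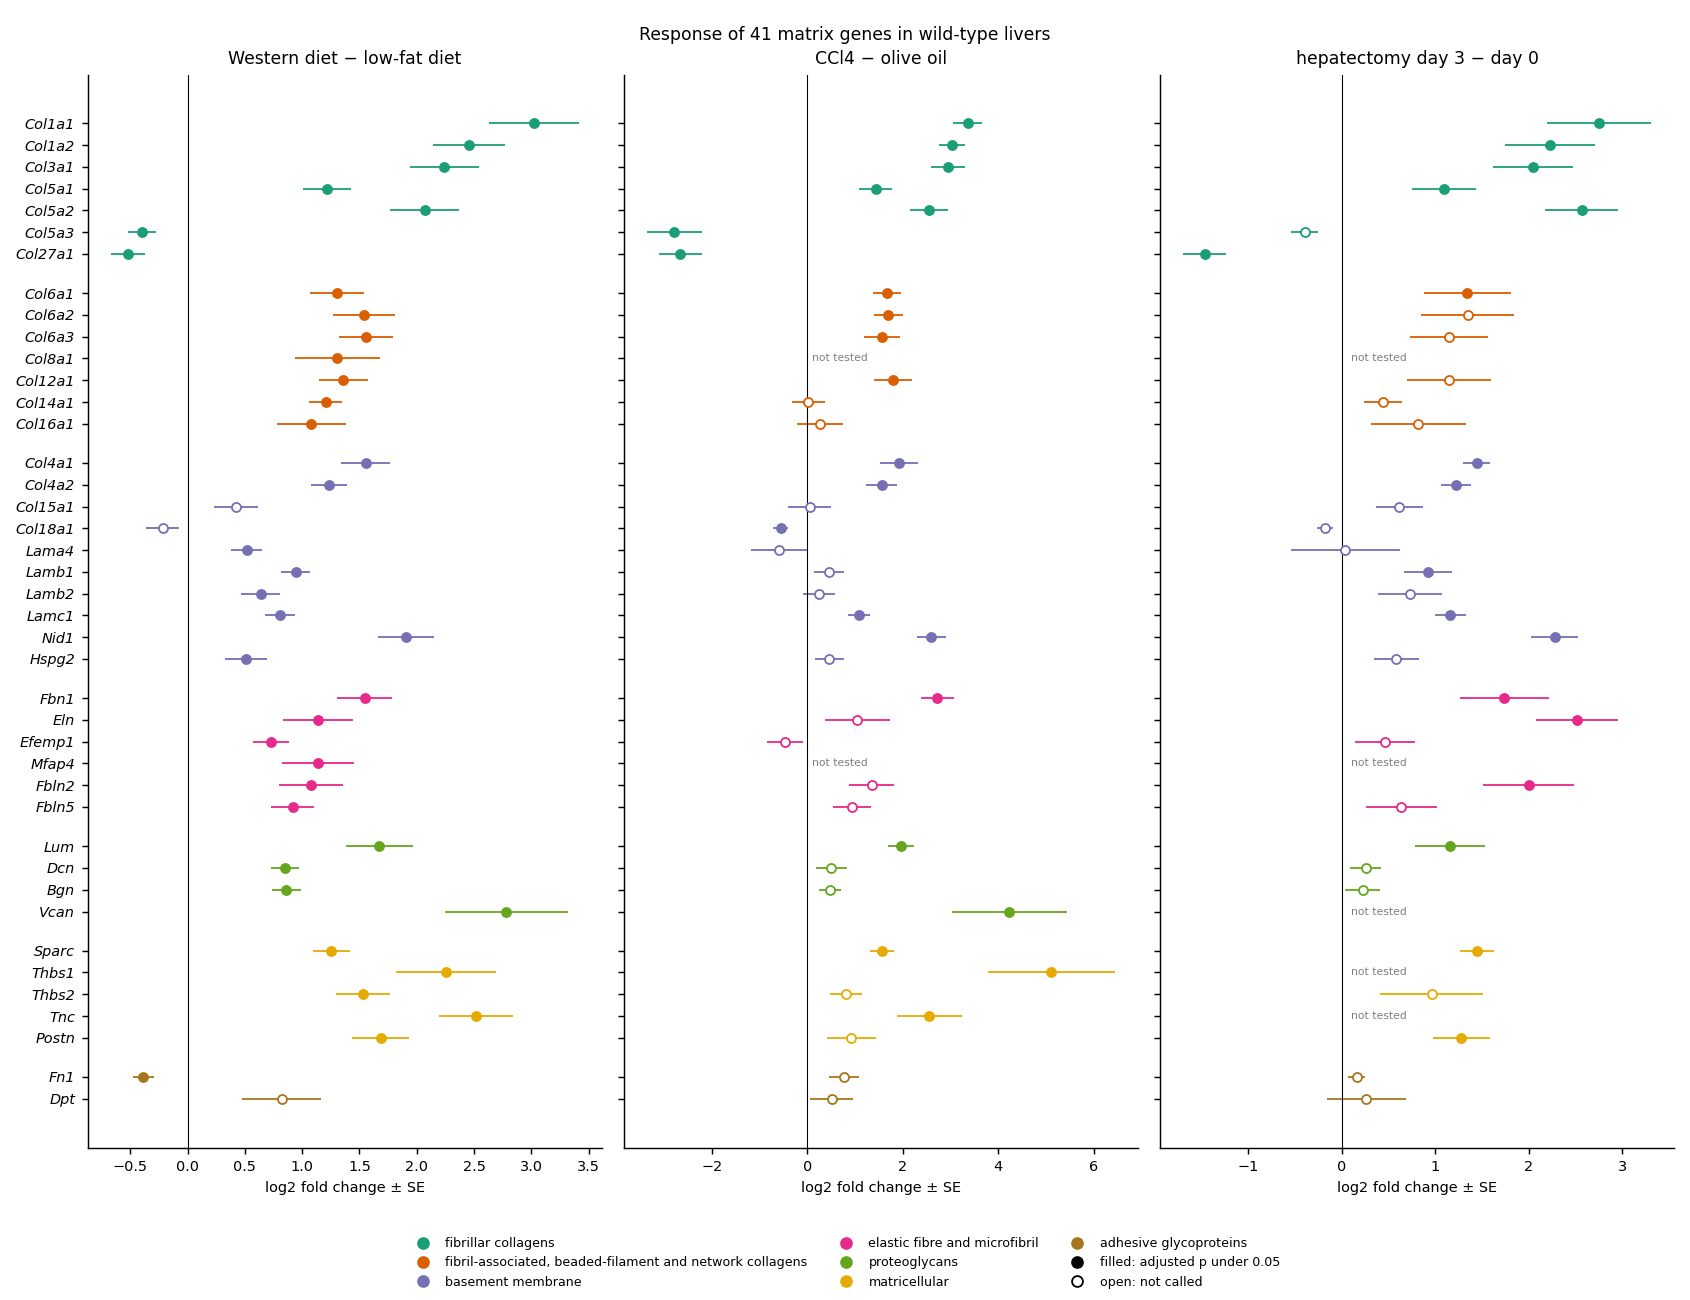
Log2 fold change with its standard error (bars) of each of the 41 members in wild-type livers, for Western diet against low-fat diet, CCl4 against olive oil and hepatectomy day 3 against day 0. Filled points passed the adjusted p threshold of 0.05, and most lie to the right of 0, with Col27a1 to the left in all 3 panels and Col5a3 far to the left after CCl4.

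The fibrillar collagens had the highest median response of the 7 classes, with a median log2 fold change of 2.07 with Western diet, 2.55 with CCl4 and 2.04 with hepatectomy over 7 members. Of these, 5 rose in every challenge and they were the same 5, the type I chains Col1a1 and Col1a2, the type III chain Col3a1, and the type V chains Col5a1 and Col5a2, which help to start and to size type I fibrils. The remaining members, Col5a3 (another type V chain) and Col27a1 (a fibrillar collagen best known from cartilage), were called lower, Col5a3 in 2 challenges and Col27a1 in all 3.

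Col1a1 (ENSMUSG00000001506, GRCm38 chr11:94936224-94953042) had a lowest, median and highest level of 1.42, 5.01 and 8.33 CPM on low-fat diet and of 16.4, 46.3 and 63.0 CPM in wild-type livers on Western diet. The groups did not overlap, and the increase was 8.11-fold (log2 3.02 ± 0.39 SE, edgeR's adjusted p = 6.7e-06). Olive oil livers had 7.20, 10.5 and 16.1 CPM, and after CCl4 wild-type livers 4, 34, 5 and 7 had 75.1, 63.2, 170.3 and 147 CPM. All CCl4 livers stood above all olive oil livers, by 10.3-fold (log2 3.36 ± 0.31 SE, edgeR's adjusted p = 1.41e-05). On day 0 of hepatectomy, livers 16, 12, 13, 14 and 15 had 5.49, 7.01, 16.1, 12.8 and 9.70 CPM, and on day 3 livers 12, 13, 14, 15 and 16 had 107, 29.1, 146, 40.7 and 19.3 CPM. Every day 3 liver stood above every day 0 liver, but livers 12 and 14 lay far above the other 3 (6.73-fold, log2 2.75 ± 0.56 SE, edgeR's adjusted p = 0.00157).

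Col3a1 (ENSMUSG00000026043, chr1:45311538-45349706) was the most abundant of the class per length in the mean over the 9 groups. Col5a3 stood above it in each control group, at 11.9 against 3.14 CPM per kilobase on low-fat diet. The values were 17.4 against 3.39 after olive oil and 15.6 against 3.95 on day 0. Col5a3 was also higher in day 3 labelled knockout livers (13.5 against 12.1), and Col3a1 was higher in every challenged wild-type group. Col3a1 had 15.9, 28.9 and 47.4 CPM (lowest, median, highest) on low-fat diet and 70.1, 156 and 213 CPM on Western diet. In olive oil livers it stood at 18.8, 32.2 and 48.3 CPM, and CCl4 livers 4, 34, 5 and 7 had 126, 137, 499 and 261 CPM. In both experiments the challenged livers lay above all controls, by 4.73-fold on Western diet (log2 2.24 ± 0.30 SE) and 7.68-fold after CCl4 (log2 2.94 ± 0.36 SE), with edgeR's adjusted p-values of 9.22e-06 and 0.000107. In the hepatectomy experiment, day 0 livers 16, 12, 13, 14 and 15 had 24.7, 22.4, 60.7, 48.0 and 38.3 CPM, and day 3 livers 12, 13, 14, 15 and 16 had 284, 70.6, 247, 89.0 and 106 CPM. The groups were again apart, with livers 12 and 14 highest (4.13-fold, log2 2.04 ± 0.42 SE, edgeR's adjusted p = 0.00193). Without livers 12 and 14, an alternative chosen after the values were seen, the log2 fold change fell to 1.57 for Col1a1 (adjusted p = 0.0438) and to 1.19 for Col3a1 (adjusted p = 0.0498).

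The other rising chains were called in every challenge with all livers included. Col1a2 rose 5.48-fold with Western diet, 8.20-fold with CCl4 and 4.68-fold with hepatectomy, and in the same order Col5a2 rose 4.19-fold, 5.85-fold and 5.92-fold, and Col5a1 rose 2.33-fold, 2.70-fold and 2.13-fold. Col5a2 lies next to Col3a1 on chromosome 1, on the opposite strand, with 24614 bases between them. Without day 3 livers 12 and 14, the hepatectomy rise of Col1a2 was 2.36-fold and not called (adjusted p = 0.0746), and that of Col5a2 was 3.66-fold and still called (adjusted p = 0.00129). The hepatectomy call of Col5a1 (adjusted p = 0.0326) was lost when any of day 0 livers 16, 12 or 15 or day 3 livers 12 or 14 was left out.

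Col5a3 (ENSMUSG00000004098, chr9:20770050-20815067), whose promoter is shown above, had 54.9, 83.5 and 101 CPM on low-fat diet and 50.9, 55.2 and 79.5 CPM on Western diet (lowest, median, highest). The ranges overlapped and the decrease was 1.32-fold (log2 -0.40 ± 0.12 SE, edgeR's adjusted p = 0.0117), which was not called when libraries were scaled by their totals alone (log2 -0.23, adjusted p = 0.167). With olive oil it had 86.4, 119 and 141 CPM, and CCl4 livers 4, 34, 5 and 7 had 18.3, 0.968, 25.3 and 23.4 CPM. All 4 CCl4 livers were below all 6 olive oil livers and liver 34 was almost without Col5a3 (6.89-fold lower, log2 -2.78 ± 0.57 SE, edgeR's adjusted p = 0.00359). On day 0, livers 16, 12, 13, 14 and 15 had 81.5, 137, 97.1, 91.2 and 123 CPM, and day 3 livers 12, 13, 14, 15 and 16 had 84.9, 64.1, 97.3, 81.7 and 76.9 CPM. These ranges overlapped and the difference did not pass the test (log2 -0.40 ± 0.14 SE, edgeR's adjusted p = 0.0637).

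Col27a1 (ENSMUSG00000045672, chr4:63214004-63334991) had 27.9, 44.9 and 47.7 CPM on low-fat diet and 20.0, 30.2 and 33.2 CPM on Western diet (lowest, median, highest), a 1.43-fold decrease with overlapping ranges (log2 -0.52 ± 0.15 SE, edgeR's adjusted p = 0.00834). Scaled by library totals alone, this decrease was not called (log2 -0.35, adjusted p = 0.0747). After olive oil it had 22.4, 35.7 and 97.4 CPM, and CCl4 livers 4, 34, 5 and 7 had 4.57, 4.12, 9.73 and 10.1 CPM, so that every CCl4 liver was lower (6.31-fold, log2 -2.66 ± 0.45 SE, edgeR's adjusted p = 0.00116). Day 0 livers 16, 12, 13, 14 and 15 had 36.4, 49.4, 37.6, 73.3 and 34.6 CPM, and day 3 livers 12, 13, 14, 15 and 16 had 11.9, 17.2, 22.9, 17.1 and 15.1 CPM. Again no liver overlapped, and the decrease was 2.76-fold (log2 -1.47 ± 0.23 SE, edgeR's adjusted p = 0.000104).

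**Figure D2:**
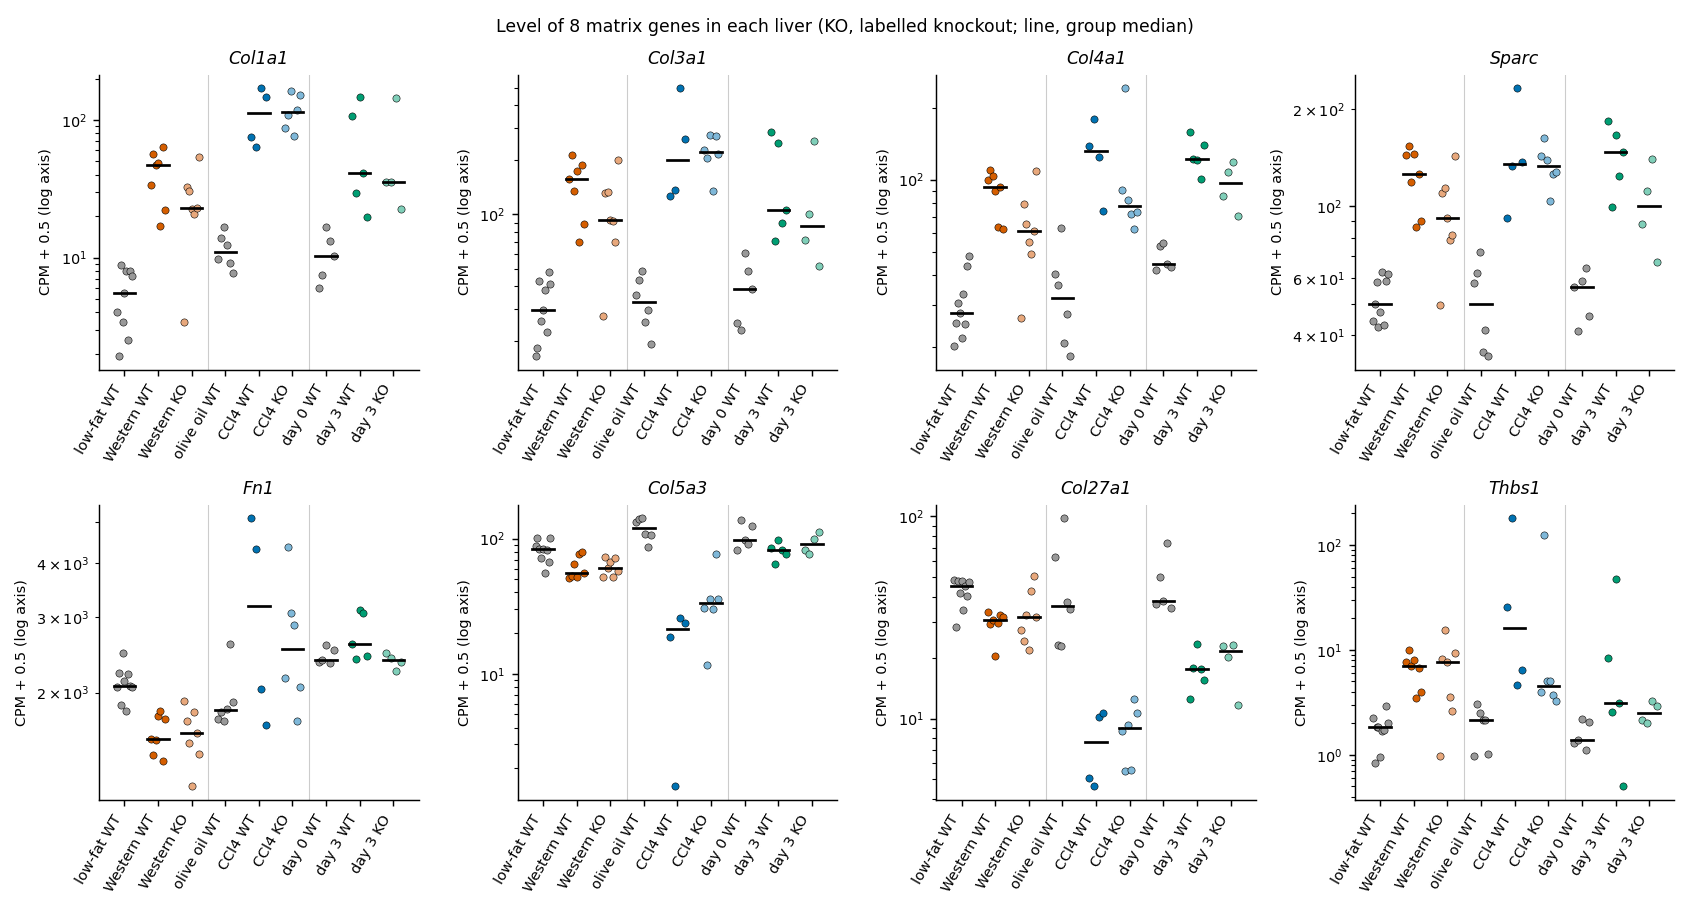
Level of 8 members in each liver, as CPM + 0.5 on a log axis, in the 9 groups of the 3 experiments, with a line at the group median. Col1a1 and Col3a1 lie higher in every challenged wild-type liver than in its controls, Col5a3 and Col27a1 lie lower after CCl4, and the highest Thbs1 values after CCl4 belong to single livers.

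Collagens that decorate or link fibrils rose as a class on Western diet, where all 7 were called higher, by 2.11-fold (Col16a1) to 2.95-fold (Col6a3). The type VI chains Col6a1, Col6a2 and Col6a3, which form beaded filaments, rose 2.47-fold, 2.91-fold and 2.95-fold there and 3.19-fold, 3.25-fold and 2.95-fold after CCl4. After hepatectomy Col6a1 had an adjusted p of 0.0497 by edgeR and was the only call of the class, while Col6a2 (2.55-fold, 0.0674), Col6a3 (2.22-fold, 0.0644) and Col12a1 (2.22-fold, 0.0862) did not pass. Leaving out any of 7 of the 10 wild-type livers, that is any but day 0 liver 14 and day 3 livers 13 and 16, ended the Col6a1 call, and without both day 3 livers 12 and 14 its rise was 1.53-fold (adjusted p = 0.469). Col8a1, a network collagen of vessels, was called on Western diet (2.47-fold, adjusted p = 0.00752) from levels of 0.184 to 2.64 CPM, and among livers with sequencing index D501 it was 3.77-fold higher but within D502 1.66-fold and not called (adjusted p = 0.391).

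Col14a1 (ENSMUSG00000022371, chr15:55307750-55520803), a fibril-associated collagen, was the most abundant of this class per length in the mean over the 9 groups. It was called in the diet experiment alone. It had 39.9, 50.9 and 71.3 CPM on low-fat diet and 94.5, 122 and 176 CPM on Western diet, with no overlap (2.31-fold, log2 1.21 ± 0.14 SE, edgeR's adjusted p = 3.29e-06). Olive oil livers had 23.2, 45.1 and 69.7 CPM, and CCl4 livers 4, 34, 5 and 7 had 20.3, 34.4, 72.8 and 55.1 CPM. These spread over the whole olive oil range (1.02-fold, log2 0.02 ± 0.35 SE, edgeR's adjusted p = 0.972). In the hepatectomy experiment, day 0 livers 16, 12, 13, 14 and 15 had 37.2, 22.5, 49.98, 57.5 and 30.7 CPM and day 3 livers 12, 13, 14, 15 and 16 had 51.9, 36.5, 60.4, 56.7 and 60.3 CPM, which overlapped (1.36-fold, adjusted p = 0.152).

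Among the 10 basement membrane genes, 8 were called higher on Western diet and 0 lower, 4 higher and 1 lower after CCl4, and 5 higher after hepatectomy. The same 4 genes rose in all 3 challenges: Col4a1 and Col4a2, the chains of the common type IV network, Lamc1, a laminin gamma chain, and Nid1, which links laminin to type IV collagen. Nid1 rose most, by 3.75-fold, 6.07-fold and 4.84-fold.

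Col4a1 (ENSMUSG00000031502, chr8:11198423-11312826) had 19.6, 27.2 and 47.4 CPM on low-fat diet and 61.9, 92.8 and 109.7 CPM on Western diet (2.94-fold, log2 1.55 ± 0.21 SE, edgeR's adjusted p = 1.13e-05). In olive oil livers it stood at 17.8, 31.4 and 62.1 CPM, and CCl4 livers 4, 34, 5 and 7 had 138, 179, 124 and 73.1 CPM (3.79-fold, log2 1.92 ± 0.40 SE, adjusted p = 0.00392). In both experiments every challenged liver exceeded every control liver. On day 0, livers 16, 12, 13, 14 and 15 had 41.5, 52.3, 53.9, 43.8 and 42.5 CPM, and day 3 livers 12, 13, 14, 15 and 16 had 158, 121, 121, 100.3 and 139 CPM. Both sets were tight and far apart (2.72-fold, log2 1.44 ± 0.14 SE, edgeR's adjusted p = 8.97e-07), and Col4a1 had the smallest adjusted p of all members in the hepatectomy comparison. Col4a2, which starts on the opposite strand and shares 22 bases with Col4a1 at their starts, rose 2.35-fold, 2.94-fold and 2.33-fold.

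Col18a1 (ENSMUSG00000001435, chr10:77052178-77166548), the source of endostatin and a collagen that hepatocytes are known to make, was by far the most abundant of this class per length. It had 638, 889 and 1044 CPM on low-fat diet and 565, 782 and 949 CPM on Western diet, which overlapped (log2 -0.22 ± 0.14 SE, edgeR's adjusted p = 0.233). With olive oil it had 1095, 1170 and 1261 CPM, and CCl4 livers 4, 34, 5 and 7 had 975, 823, 705.5 and 678 CPM, all lower (1.47-fold, log2 -0.56 ± 0.16 SE, edgeR's adjusted p = 0.0211). That call was lost without CCl4 liver 5 or 7, with library totals as the scale, with no filter on low counts and with the sequencing index as a covariate. Day 0 livers 16, 12, 13, 14 and 15 had 1299, 1468, 1468, 1427 and 1471 CPM, and day 3 livers 12, 13, 14, 15 and 16 had 1339, 1289.6, 1265, 1185 and 1226 CPM. Liver 12 on day 3 reached into the day 0 range (log2 -0.18 ± 0.09 SE, adjusted p = 0.17).

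The remaining laminin chains and perlecan moved less. On Western diet Lamb1 rose 1.92-fold, Lamb2 1.56-fold, Lama4 1.43-fold and Hspg2 (perlecan, the basement membrane heparan sulfate proteoglycan) 1.42-fold, and the Hspg2 call did not hold when low-fat livers 7, 12, 20, 21 or 25 or Western diet livers 17 or 34 were dropped. Of these, Lamb1 alone was called after hepatectomy (1.90-fold, adjusted p = 0.0163), and it was not called without day 3 liver 12 (adjusted p = 0.0615). None of these 4 was called after CCl4, where the log2 fold change was between -0.59 (Lama4) and 0.46 (Hspg2).

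All 6 genes of elastic fibres and microfibrils rose on Western diet, by 1.65-fold (Efemp1) to 2.92-fold (Fbn1). Fbn1, the fibrillin of microfibrils, was also higher after CCl4 (6.60-fold, adjusted p = 0.00017) and after hepatectomy (3.34-fold, adjusted p = 0.014), where day 3 liver 12 had 32.7 CPM and the other day 3 livers 4.99 to 7.73 CPM. Without liver 12 its log2 fold change fell from 1.74 to 0.85 and was not called (adjusted p = 0.115). Of the Fbn1 exon bases, 20.1% are shared with Gm9913 on the opposite strand, and whether counting used the strand is not given in the sources used here.

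Elastin itself, Eln, was called higher on Western diet (2.20-fold, adjusted p = 0.00474) and after hepatectomy (5.71-fold, adjusted p = 0.000386). In the hepatectomy experiment, day 0 livers 16, 12, 13, 14 and 15 had 1.18, 2.39, 4.80, 1.82 and 1.83 CPM, and day 3 livers 12, 13, 14, 15 and 16 had 26.7, 8.90, 16.4, 11.03 and 6.96 CPM, with no overlap. Without day 3 livers 12 and 14 the rise was 3.66-fold (adjusted p = 0.00923). After CCl4, livers 4 and 34 (0.913 and 1.94 CPM) lay within the olive oil range of 0 to 4.87 CPM and livers 5 and 7 (9.06 and 7.17 CPM) above it (2.07-fold, adjusted p = 0.299). Fbln2, a fibulin that binds to elastic fibres, was called after hepatectomy (4.00-fold, adjusted p = 0.00674) and was 2.55-fold higher after CCl4 without passing (adjusted p = 0.0533). Its hepatectomy rise was 6.27-fold without day 0 liver 14, and without day 3 livers 12 and 14 it was 2.76-fold and not called (adjusted p = 0.0815).

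Efemp1 (ENSMUSG00000020467, chr11:28853204-28926743), also known as fibulin-3 and the most abundant of the class per length, had 8.11, 10.5 and 14.5 CPM on low-fat diet and 11.7, 19.0 and 23.5 CPM on Western diet. These ranges overlapped, with an increase of 1.65-fold (log2 0.73 ± 0.16 SE, edgeR's adjusted p = 0.000826). After olive oil it had 2.83, 9.22 and 17.9 CPM, and CCl4 livers 4, 34, 5 and 7 had 7.08, 6.78, 9.73 and 3.67 CPM, within that range (log2 -0.46 ± 0.38 SE, adjusted p = 0.415). On day 0, livers 16, 12, 13, 14 and 15 had 4.70, 4.32, 6.21, 4.26 and 4.98 CPM and day 3 livers 12, 13, 14, 15 and 16 had 9.35, 4.45, 11.4, 3.94 and 4.64 CPM, with livers 12 and 14 alone above day 0 (log2 0.46 ± 0.32 SE, adjusted p = 0.369).

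The proteoglycans were all called higher on Western diet. Lum (lumican), a small leucine-rich proteoglycan that spaces collagen fibrils, rose in all 3 challenges, by 3.19-fold, 3.92-fold and 2.23-fold, and its hepatectomy call (adjusted p = 0.0395) was not made without day 0 livers 16, 12 or 14 or day 3 livers 12, 14 or 15. Its neighbour on chromosome 10, Dcn (decorin, ENSMUSG00000019929, chr10:97479609-97518143), which binds type I collagen and growth factors, was the member with the highest level per length on low-fat diet after Fn1 and Col18a1.

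Dcn had 146, 178 and 195 CPM on low-fat diet and 220.5, 316 and 403 CPM on Western diet, with no overlap (1.80-fold, log2 0.85 ± 0.12 SE, edgeR's adjusted p = 1.99e-05). Olive oil livers had 61.8, 107 and 170.3 CPM, and CCl4 livers 4, 34, 5 and 7 had 118, 259, 145 and 119 CPM, of which liver 34 alone left the olive oil range (1.42-fold, adjusted p = 0.29). Day 0 livers 16, 12, 13, 14 and 15 had 92.9, 65.6, 92.1, 135 and 80.5 CPM and day 3 livers 12, 13, 14, 15 and 16 had 126, 77.1, 122, 119 and 109 CPM, which overlapped (1.19-fold, adjusted p = 0.316). Bgn (biglycan), a close relative, ran alongside at 1.82-fold on Western diet (adjusted p = 2.02e-05), 1.39-fold after CCl4 (0.16) and 1.17-fold after hepatectomy (0.459).

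Vcan (versican), a large proteoglycan of provisional matrix, was the least abundant member per length in 7 of the 9 groups, with 0 to 0.264 CPM on low-fat diet and 0.155 to 1.71 CPM on Western diet (6.88-fold, log2 2.78 ± 0.54 SE, edgeR's adjusted p = 0.000291). After olive oil 3 of 6 livers were at 0, and CCl4 livers 4, 34, 5 and 7 had 3.20, 24.7, 1.47 and 2.97 CPM (log2 4.23 ± 1.21 SE, adjusted p = 0.0216). That call rested on liver 34, since without it the log2 fold change was 2.59 and the adjusted p 0.147. Without olive oil liver 30 the fitted value was 5.23.

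Among the matricellular genes, Sparc (ENSMUSG00000018593, chr11:55394500-55423183), a collagen-binding glycoprotein also known as osteonectin, rose in all challenges. It had 41.9, 49.3 and 62.3 CPM on low-fat diet and 85.6, 125 and 153 CPM on Western diet (2.38-fold, log2 1.25 ± 0.16 SE, edgeR's adjusted p = 6.15e-06). In olive oil livers it stood at 34.0, 49.3 and 71.9 CPM, and CCl4 livers 4, 34, 5 and 7 had 91.3, 132, 232 and 137 CPM (2.95-fold, log2 1.56 ± 0.25 SE, adjusted p = 0.000848). Controls and challenged livers were apart in both experiments. In the hepatectomy experiment, day 0 livers 16, 12, 13, 14 and 15 had 56.0, 40.7, 58.5, 64.2 and 45.3 CPM and day 3 livers 12, 13, 14, 15 and 16 had 183, 99.4, 165, 124 and 146 CPM, again with no overlap (2.73-fold, log2 1.45 ± 0.19 SE, edgeR's adjusted p = 1.72e-05).

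Thbs1 (thrombospondin 1, ENSMUSG00000040152, chr2:118111876-118127133), which can release TGF-beta from its latent form, had 0.335, 1.35 and 2.43 CPM on low-fat diet and 2.94, 6.55 and 9.48 CPM on Western diet, with no overlap (4.78-fold, log2 2.26 ± 0.44 SE, edgeR's adjusted p = 0.00029). With olive oil it had 0.478, 1.65 and 2.52 CPM, and CCl4 livers 4, 34, 5 and 7 had 25.1, 179, 4.13 and 5.95 CPM. All 4 exceeded the olive oil livers, and this was the largest rise of any member in any of the 3 comparisons (34.7-fold, log2 5.12 ± 1.33 SE, edgeR's adjusted p = 0.0134). Without liver 34 the log2 fold change was 2.91 and the call was lost (adjusted p = 0.109), and without livers 4 and 34 it was 1.72 (adjusted p = 0.462). After hepatectomy Thbs1 did not pass the filter: day 0 livers 16, 12, 13, 14 and 15 had 0.784, 0.895, 1.69, 0.608 and 1.57 CPM and day 3 livers 12, 13, 14, 15 and 16 had 7.79, 2.08, 46.8, 2.63 and 0 CPM. Liver 14 stood far above the rest and liver 16 had no count. With no filter on low counts, Thbs1 and Tnc were among the members called higher after hepatectomy.

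Tnc (tenascin C), a matrix protein of wounds, rose 5.71-fold on Western diet (adjusted p = 5.93e-06) and 5.90-fold after CCl4 (adjusted p = 0.0156). Without olive oil liver 28 the CCl4 rise was 10.7-fold. Thbs2, a second thrombospondin, rose 2.89-fold and Postn (periostin) 3.21-fold on Western diet. Neither was called after CCl4, where Postn had 0.685 CPM in liver 4 against 12.6 to 24.3 CPM in the other 3 livers and 5.59 to 9.56 CPM after olive oil. After hepatectomy Postn was called (2.43-fold, adjusted p = 0.0063) and Thbs2 was not (1.95-fold, adjusted p = 0.258).

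Fn1 (fibronectin, ENSMUSG00000026193, chr1:71585520-71653200), an adhesive glycoprotein, was the most abundant member per length in 8 of the 9 groups. It had 1809, 2073 and 2471 CPM on low-fat diet and 1389, 1563 and 1811 CPM on Western diet, so that the highest Western diet liver lay just above the lowest low-fat liver (1.31-fold lower, log2 -0.39 ± 0.09 SE, edgeR's adjusted p = 0.00164). After olive oil it had 1713, 1817 and 2592 CPM, and CCl4 livers 4, 34, 5 and 7 had 5089, 4311, 2042 and 1676 CPM. Livers 4 and 34 were above all olive oil livers and livers 5 and 7 were not (1.70-fold higher, log2 0.77 ± 0.31 SE, adjusted p = 0.0915). On day 0, livers 16, 12, 13, 14 and 15 had 2359, 2385, 2582, 2345 and 2505 CPM, and day 3 livers 12, 13, 14, 15 and 16 had 2592, 2396, 3104, 3066 and 2436 CPM, which overlapped (log2 0.16 ± 0.09 SE, adjusted p = 0.279). Dpt (dermatopontin), which binds decorin, did not pass in any challenge, with 1.77-fold on Western diet (adjusted p = 0.0614).

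**Figure D3:**
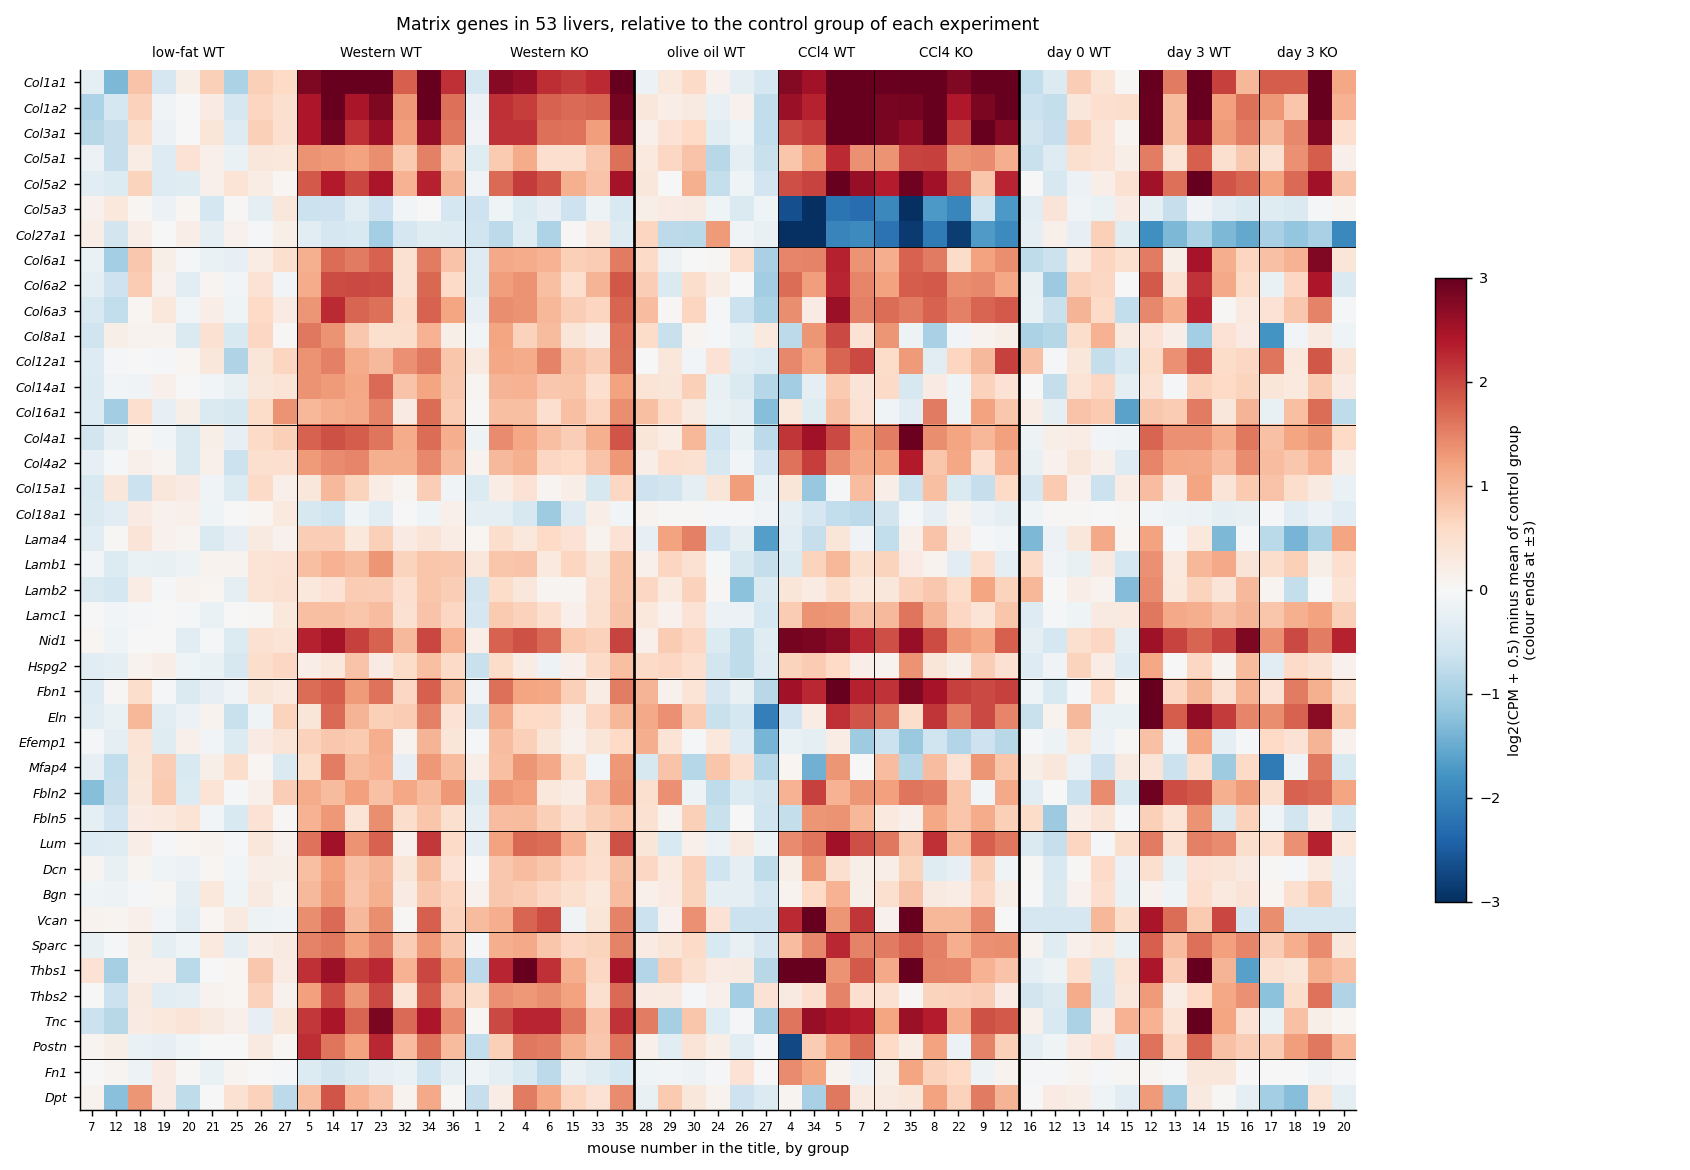
Heat map of log2(CPM + 0.5) of each of the 41 members in each of the 53 livers, minus the mean of the control group of the experiment. The columns of day 3 wild-type livers 12 and 14 and labelled knockout liver 19 are higher for the type I and III collagens than those of the other day 3 livers, and labelled knockout liver 1 on Western diet lies close to 0 for most members.

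Livers of a group differed in matrix level across many members at once. On day 3 after hepatectomy the median over the 7 fibrillar collagens, in log2(CPM + 0.5) above each gene's day 0 mean, was 2.53 in wild-type liver 12, 2.76 in wild-type liver 14 and 2.53 in labelled knockout liver 19, against 0.50 to 1.38 in the other 6 day 3 livers. Col5a3 and Col27a1 did not share this height, at -0.29 and -1.85 in liver 12, -0.10 and -0.94 in liver 14 and -0.07 and -0.96 in liver 19. The summed markers of portal fibroblasts and mesothelium were 58.7, 36.1 and 48.2 CPM in these 3 livers and 9.21 to 21.1 CPM in the other 6. Vascular smooth muscle markers summed to 319 CPM in liver 12 and to 73.0 to 113 CPM in the others. Clec3b, Upk1b and Upk3b, of the portal and mesothelial list, were at 0 on day 0. The part of these markers in the collagen values was not tested. In the titles, livers 12, 14 and 19 carry an N after the mouse number. So does wild-type liver 13, whose fibrillar median was 0.95, and the other day 3 livers do not. What the N stands for is not given in the labels, and its part was not tested. Without wild-type livers 12 and 14, 11 members were called after hepatectomy in place of 18.

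After CCl4, wild-type liver 34 and labelled knockout liver 35 stood apart from the rest. They were the only CCl4-treated livers on i5 index D505, so index and liver cannot be told apart here. Their Thbs1 levels were 179 and 125 CPM, their summed markers of dividing cells 19.6 and 26.3 CPM against 144 to 653 CPM in the other 8 livers, and their summed neutrophil markers 224 and 90.1 CPM, with 74.9 CPM in wild-type liver 4 and 6.29 to 14.3 CPM in the other 7. Macrophage markers summed to 659 and 885 CPM in livers 34 and 35, against 359 to 627 CPM in the other 8. Liver 34 had the lowest Col5a3 (0.968 CPM) and liver 35 the lowest Col5a3 of its group (11.02 CPM). Col1a1 in liver 34 (63.2 CPM) and liver 4 (75.1 CPM) was the lowest of the CCl4 wild-type livers. Whether these markers bear on the matrix values was not tested.

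The sequencing index and the groups were partly tied. All day 3 livers carried i5 index D507 and all day 0 livers D505 or D506, so the index and the time after hepatectomy cannot be told apart. Index D503 was carried by CCl4 livers alone. The 3 olive oil livers on D505 were higher than the 3 on D504 with no overlap for 24 members, lower for 2 (Col15a1 and Fn1) and overlapping for 15. Of all 11663 genes tested in the CCl4 experiment, 12.9% were higher on D505 with no overlap and 12.7% lower, so the members' share of higher genes was well above the background. With the index as a covariate, 22 members were again called after CCl4, with Col6a3 and Col18a1 lost and Fbln2 and Fn1 gained. The covariate lowered the rise from 10.3-fold to 6.59-fold for Col1a1, from 7.68-fold to 4.66-fold for Col3a1 and from 2.95-fold to 1.91-fold for Col6a3. It raised the fall from 6.89-fold to 20.3-fold for Col5a3 and from 6.31-fold to 9.73-fold for Col27a1, and the rise of Thbs1 from 34.7-fold to 74.3-fold. The fitted log2 fold change of Vcan went from 4.23 to 5.33. Of the CCl4 livers, only wild-type liver 34 and labelled knockout livers 35 and 22 shared an index with olive oil livers. The covariate fit therefore links CCl4 and olive oil livers through these alone, and livers 34 and 35 stood apart as described above. Their part in these shifts was not tested. Within index D501 32 members were called on Western diet (30 higher, 2 lower) and within D502 28 (27 higher, 1 lower), and Lama4, Lamb2, Hspg2, Eln and Mfap4 were called within neither.

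Whether the Bmp8b label changed the matrix response was asked within each challenge, and no member was called in any of the 3 comparisons between labelled knockout and wild-type livers. Over all genes, edgeR called 0.0154% on Western diet (2 genes, with 766 at an unadjusted p under 0.05), 0.00857% after CCl4 (1 gene, with 719) and 0.154% after hepatectomy (17 genes, with 1001). At an unadjusted p under 0.05 there were 8 members in the diet comparison, 2 with CCl4 and 5 with hepatectomy, and DESeq2 also called 0 members in each. Ranges overlapped for all members, but overlap was not counted over all genes, so this is not read as a result about the members.

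The fitted differences were nevertheless mostly below 0, least so after CCl4, where 4 of 7 fibrillar collagens were above 0. On Western diet, 38 of 41 log2 fold changes were below 0, with a median of -0.33 against -0.00 over all genes, and the smallest adjusted p was 0.813. After CCl4, 26 of 39 were below 0 (median -0.22, against -0.01) and after hepatectomy 29 of 36 (median -0.35, against 0.00). The members share livers, so these counts are not independent and carry no test. Within i5 index D501 the median on Western diet was -0.47 and within D502 -0.04, and within index D503 the median after CCl4 was -0.18.

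On Western diet, Col1a1 had a lowest, median and highest level of 2.87, 22.3 and 52.9 CPM in labelled knockout livers, against 16.4, 46.3 and 63.0 CPM in wild-type livers (1.55-fold lower, log2 -0.64 ± 0.38 SE, edgeR's adjusted p = 0.813). Col4a1 had 26.0, 60.6 and 108 CPM against 61.9, 92.8 and 109.7 CPM (1.40-fold lower, unadjusted p = 0.0396 by edgeR). The low end was 1 liver, labelled knockout liver 1, which had the lowest level of all 14 Western diet livers for 32 of the 41 members. Its median over all members, in log2(CPM + 0.5) against each gene's low-fat mean, was -0.15, and those of the other 6 labelled knockout livers were 0.57 to 1.41. Its summed markers were also low, at 238 CPM for macrophages against 300 to 1019 CPM in the other labelled knockout livers, and at 47.1 CPM for myofibroblasts against 58.1 to 145 CPM, and their part in the result was not tested.

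After CCl4, Col1a1 had 75.7, 114 and 162 CPM in labelled knockout livers, within 63.2 to 170.3 CPM in wild-type livers (log2 0.04 ± 0.29 SE, edgeR's adjusted p = 0.99). Nid1 had the smallest p of the members, with 35.7, 58.9 and 99.1 CPM against 77.8 to 118 CPM in wild-type livers (log2 -0.81 ± 0.30 SE, edgeR's adjusted p = 0.744). Col5a3 was 2.10-fold higher in labelled knockout livers without passing (11.02, 32.7 and 76.5 CPM, log2 1.07 ± 0.53 SE, adjusted p = 0.814).

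On day 3 after hepatectomy, labelled knockout livers 17, 18, 19 and 20 had 34.7, 34.6, 144 and 21.9 CPM of Col1a1 and 71.5, 99.7, 252 and 51.5 CPM of Col3a1. Liver 19 matched wild-type livers 12 and 14, and the other 3 lay among or below the remaining wild-type livers (Col1a1 log2 -0.25 ± 0.51 SE, edgeR's adjusted p = 0.938). For Col4a1 they had 85.3, 107, 118 and 70.2 CPM and for Sparc 88.0, 111, 139.5 and 66.7 CPM, each with 2 livers below every wild-type liver (Col4a1 1.35-fold lower, edgeR's adjusted p = 0.36, and Sparc 1.42-fold lower, adjusted p = 0.422). For Fn1 they had 2471, 2408, 2244 and 2361 CPM, inside or slightly below the wild-type range (adjusted p = 0.581).

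The responses of wild-type livers to the 3 challenges were then compared in a joint fit of all 53 libraries. The diet experiment differs in age, duration and sequencing pool from the CCl4 and hepatectomy experiments, which share these. The deposited counts list 53379 genes for hepatectomy and 38293 for each of the other experiments, so the set of genes counted also differs. A difference holds for the experiments as run. Between Western diet and CCl4, 4 members had a higher response on Western diet and 1 a lower, among 41 tested, against 7.72% and 8.37% of all 12646 genes, so the members' shares were not far from the background. The log2 difference of responses was 2.37 ± 0.40 SE for Col5a3 (adjusted p = 5.01e-05), 2.13 ± 0.39 SE for Col27a1 (adjusted p = 0.000147), 1.20 ± 0.36 SE for Efemp1 (adjusted p = 0.018) and 1.18 ± 0.34 SE for Col14a1 (adjusted p = 0.0119), and -1.13 ± 0.24 SE for Fn1 (adjusted p = 0.000961). The first pair fell more after CCl4, and Col14a1 and Efemp1 were called higher on Western diet and not called after CCl4. Without olive oil liver 28 or CCl4 liver 7 the Efemp1 difference was not called. Without CCl4 livers 4 and 34, Col5a3 and Col27a1 were still called and Col14a1, Efemp1 and Fn1 were not, with the Fn1 difference at -0.31 (adjusted p = 0.388). These comparisons share CCl4 or control livers with the next ones.

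Between CCl4 and hepatectomy, Col5a3 was the 1 member called, with a response lower after CCl4 by a log2 difference of -2.37 ± 0.44 SE (adjusted p = 0.000737). Over all genes 2.29% were called with the higher and 3.8% with the lower response after CCl4. Between Western diet and hepatectomy no member was called, against 3.53% of all genes, with 6 members at an unadjusted p under 0.05 by edgeR and 0 called by DESeq2. The type I, III and IV collagen responses were not called different between any pair of challenges.

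Ratios of chains within a library do not depend on how libraries are scaled. Per kilobase of exon, Col1a1 rose relative to its partner chain Col1a2 by 1.58-fold on Western diet, relative to Col3a1 by 1.80-fold and relative to Col4a1 by 2.85-fold, with adjusted p-values of 0.0168, 0.0042 and 0.0042 by exact two-sided permutation tests adjusted over 24 tests. None of the other 21 ratio tests passed. The Col1a1 to Col4a1 ratio rose 2.46-fold after CCl4 (adjusted exact permutation p = 0.229) and 1.97-fold after hepatectomy (0.324). The Col4a1 to Col4a2 ratio rose 1.25-fold on Western diet (0.0692).

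Order by level per length changed with these responses. In mean CPM per kilobase of exon, Col1a1 went from rank 27 of 41 on low-fat diet to 16 on Western diet, from 19 to 7 with CCl4 and from 20 to 10 with hepatectomy in wild-type livers. Col5a3 went from rank 6 to 11, from 4 to 22 and from 5 to 9, and Col27a1 from 12 to 23, from 11 to 38 and from 11 to 29. Fn1 and Col18a1 held the first ranks in every group, at 179.7 and 124 CPM per kilobase on low-fat diet, far above Dcn, the next, at 29.3. Fibrillar collagens made up 4.87% of the summed level per kilobase of all members on low-fat diet and 7.90% on Western diet, 6.34% and 9.46% in the CCl4 experiment, and 5.13% and 7.83% after hepatectomy.

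**Figure D4:**
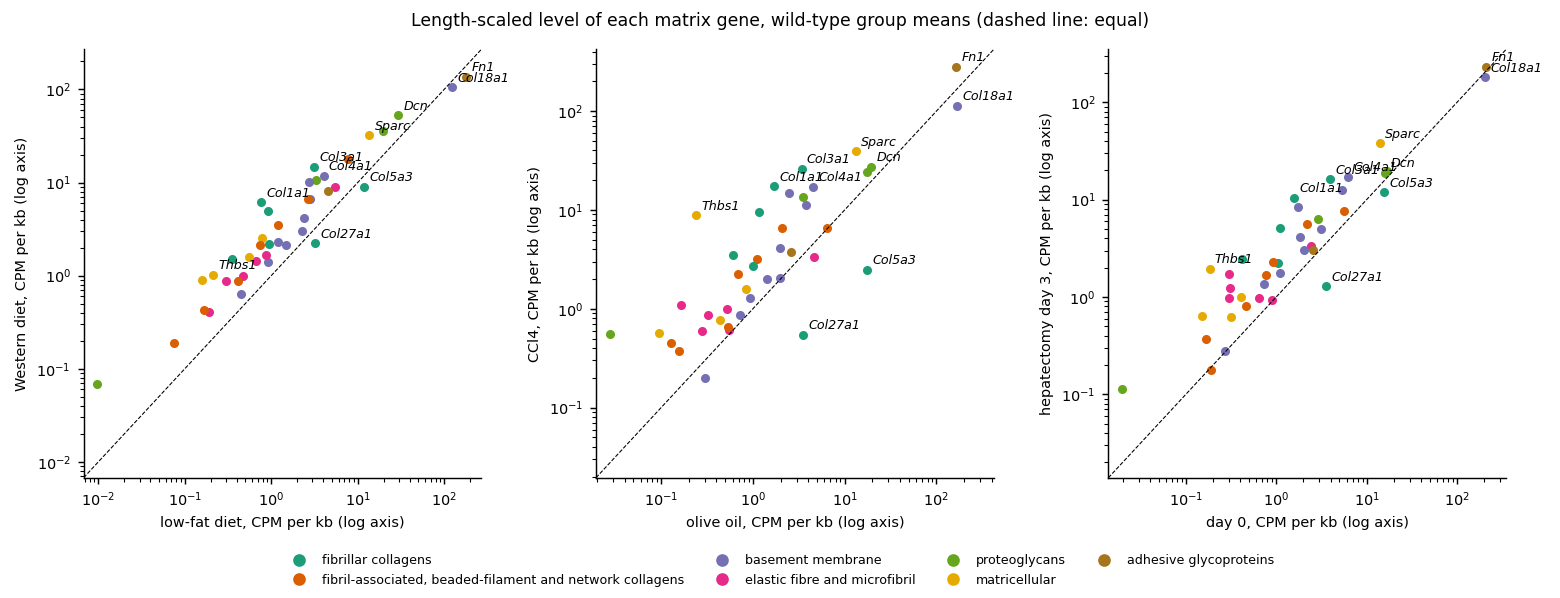
Mean CPM per kilobase of exon of each member in the challenged group (vertical, log axis) against its control group (horizontal, log axis), in wild-type livers of the 3 experiments. Most members lie above the line of equal level, Fn1 and Col18a1 lie at the upper end near it, and Col5a3 and Col27a1 fall below it after CCl4.

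Genes around the members, from lists that do not overlap them apart from Sparc, gave the setting. Of 26 other collagens, 4, 5 and 2 could be tested in the diet, CCl4 and hepatectomy experiments, and the calls were Col4a5, a type IV chain (log2 1.54 on Western diet and 1.72 after hepatectomy), and Col13a1, a transmembrane collagen (log2 -0.56 on Western diet). Shares called higher and lower over all genes were 20.4% and 17% on Western diet, 11.1% and 8.87% after CCl4, and 9.87% and 7.5% after hepatectomy. Of 48 other matrix glycoproteins and proteoglycans, 25 of 39 tested rose and 3 fell on Western diet, 7 of 32 rose and 2 fell after CCl4, and 7 of 27 rose and 3 fell after hepatectomy. The smallest p-values belonged to Tgfbi, Prelp and Matn2 on Western diet (log2 1.06, 0.81 and 1.51), to Matn2, Ltbp2 and Smoc2 after CCl4 (2.49, 2.04 and 1.83), and to Emilin1, Smoc2 and Ecm1 after hepatectomy (1.19, 1.71 and -1.04).

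Of the genes that process and secrete collagen, 14 of 24 tested were called higher and 3 lower on Western diet (20.4% and 17% over all genes), 9 of 23 higher and 0 lower after CCl4 (11.1% and 8.87%), and 8 of 21 higher and 0 lower after hepatectomy (9.87% and 7.5%). The others, 7, 14 and 13 genes, were not called. Besides Sparc they included Adamts2, which trims the end of procollagen (log2 1.42 on Western diet), Crtap and P3h1 of the prolyl 3-hydroxylase complex (1.22 and 0.98 after CCl4), and Pcolce and the collagen chaperone Serpinh1 (2.21 and 1.84 after hepatectomy). Among matrix receptors 10 of 21 rose and 4 fell on Western diet, 7 of 19 rose after CCl4, and 5 of 20 rose and 1 fell after hepatectomy. Cd44, a hyaluronan receptor, rose on Western diet (log2 1.83) and after CCl4 (1.56), the collagen receptor Ddr1 after CCl4 (2.63) and hepatectomy (1.84), Sdc3 on Western diet (1.06) and Sdc1 after hepatectomy (1.01), while Sdc2 fell by 0.71 on the log2 scale on Western diet.

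Cell type markers moved with the matrix genes. In the diet experiment 9 of 10 quiescent stellate cell markers and 8 of 9 tested myofibroblast markers were called higher, and their summed levels were 128 to 188 CPM and 33.1 to 67.0 CPM on low-fat diet against 222 to 333 CPM and 65.5 to 134 CPM on Western diet. After CCl4 2 of 10 and 6 of 9 were called higher, with myofibroblast sums of 18.8 to 56.9 CPM after olive oil and 79.0 to 169 CPM after CCl4. After hepatectomy 1 of 9 and 5 of 8 were called higher, with sums of 30.2 to 48.3 CPM on day 0 and 63.3 to 146 CPM on day 3. The shares of stellate cell markers called after CCl4 and after hepatectomy were not far from those of all genes. Acta2, a myofibroblast marker of the list, had 1.34 to 17.4 CPM on low-fat diet and 3.12 to 8.52 CPM in wild-type livers on Western diet. Its wild-type levels were 1.20 to 5.79 CPM after olive oil and 6.16 to 22.1 CPM after CCl4. They were 0.786 to 5.37 CPM on day 0 and 2.10 to 26.5 CPM on day 3. No defining stellate or myofibroblast marker was at 0 in any group, and the part of either cell type in the matrix result was not tested.

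Markers of other cells were also called, and their part was not tested either. Over all genes, 20.4% were called higher and 17% lower on Western diet, 11.1% and 8.87% after CCl4, and 9.87% and 7.5% after hepatectomy. Several of the counts that follow are near these shares. On Western diet 10 of 10 macrophage markers, 3 of 3 tested neutrophil markers, 4 of 7 cholangiocyte, 2 of 6 lymphocyte, 4 of 10 sinusoidal and 4 of 7 vascular endothelial, 3 of 7 portal fibroblast and mesothelial and 1 of 4 vascular smooth muscle markers were called higher, and 7 of 10 hepatocyte markers lower. After CCl4, 5 of 10 macrophage, 2 of 4 neutrophil, 2 of 7 vascular endothelial and 1 of 5 portal and mesothelial markers were called higher, and 3 of 10 sinusoidal endothelial and 1 of 10 hepatocyte markers lower. The hepatocyte gene was Cyp2e1, the enzyme that activates CCl4 (log2 -3.30), and no cholangiocyte, lymphocyte or smooth muscle marker was called. After hepatectomy, 3 of 4 portal and mesothelial, 2 of 6 vascular endothelial, 1 of 7 macrophage, 1 of 2 neutrophil and 1 of 10 hepatocyte markers were called higher, 3 of 10 sinusoidal endothelial and 2 of 10 hepatocyte markers lower, smooth muscle had 1 of 3 in each direction, and no cholangiocyte or lymphocyte marker was called. All 8 dividing cell markers were called higher in each challenge.

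In summed level in wild-type livers, macrophage markers ran from 160 to 392 CPM on low-fat diet and 413 to 923 CPM on Western diet, from 145 to 392 CPM after olive oil and 360 to 659 CPM after CCl4, and from 194 to 279 CPM on day 0 and 205 to 343 CPM on day 3. Portal and mesothelial markers ran from 6.11 to 23.7 CPM and 16.2 to 27.0 CPM in the diet groups, 3.60 to 25.7 CPM and 11.7 to 40.2 CPM in the CCl4 experiment, and 3.92 to 8.51 CPM and 15.1 to 58.7 CPM in the hepatectomy experiment. Neutrophil markers ran from 3.28 to 8.28 CPM and 6.32 to 18.7 CPM, from 0.821 to 21.7 CPM and 8.39 to 224 CPM, and from 1.18 to 4.46 CPM and 3.64 to 15.4 CPM in the same order. Of all marker genes, those at 0 throughout a wild-type group were Clec3b, Upk1b, Upk3b, Cnn1, Cd8a and Mmp8 on day 0 and Cldn4, Cd3d and Nkg7 on day 3.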

How the data were processed

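RNA-seq read counts per gene were deposited by the authors as 1 table of raw counts for each of the 3 experiments, with no normalization. Per the submitters' processing notes, TopHat2 2.0.11, HTSeq and GRCm38 were used. The strand setting and the annotation are not given in the sources used here. Gene positions, names and exon lengths were taken from GENCODE M21 and promoters from RefSeq.

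Libraries were grouped by their labels (53 libraries, 9 groups) and 0 value columns could not be mapped. Counts were scaled by TMM, low genes were removed with filterByExpr, and edgeR 4.0.16 (R 4.3.3) was fitted to all genes of an experiment, with quasi-likelihood tests, two-sided, and Benjamini-Hochberg adjustment over all genes tested. Calls were made at an adjusted p under 0.05. Differences between challenges came from 1 joint fit over the genes in all 3 tables. CPM are counts scaled to a common library total, and levels between genes were compared per kilobase of merged exon. Log2 levels used a pseudocount of 0.5. Ratios of 4 chain pairs were tested by exact permutation. Python 3.11.15, pandas 2.3.3, SciPy 1.17.1 and matplotlib 3.10.9 were used, and DESeq2 1.42.0 served as an alternative. The fits were tested on simulated data.

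Labels do not say that libraries of a group were separate litters or cages, so p-values measure the spread between these samples. No 2 libraries of a group agreed within sampling noise, the lowest chi-square per degree of freedom being 5. Members, gene lists and marker lists were chosen with earlier results of these data known. Per-liver values are given for Col1a1, Col3a1, Col4a1, Fn1 and Sparc and for the largest rise and fall called in each comparison. They are also given for the member of each class with the highest mean level per length over the 9 groups, and other members are given by fold. Of the other lists, up to 3 called genes with the smallest p are named. Values of Postn, Eln, Fbn1, Vcan and, by label, Nid1 and Col5a3 were singled out after their values were seen. Proteins were not used here. Alternatives changed the scaling, filter, dispersion, fold threshold, index covariate, groups fitted and libraries included.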

Additional observations from a re-analysis of the deposited data

Results flagged for a closer look

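Single livers lay far from the rest of their group, by Dixon's criterion at the 95% level, for 9 of the 108 pairs of gene and group tested over 12 genes, where chance would give about 5% of pairs. Col1a1 was 144.3 CPM in labelled knockout liver 19 on day 3 after hepatectomy, against 21.9 to 34.7 CPM in the others. Thbs1 was 179.1 CPM in wild-type liver 34 after CCl4, 125.2 CPM in labelled knockout liver 35 after CCl4 and 46.84 CPM in wild-type liver 14 on day 3. Col4a1 was 241.6 CPM in the same labelled knockout liver 35, and Col5a3 was 76.51 CPM in labelled knockout liver 9, both after CCl4. Lower or higher single values were also found for Fn1 in olive oil liver 26 (2592 CPM), Col18a1 in day 0 liver 16 (1299 CPM) and Col27a1 in wild-type liver 23 on Western diet (19.99 CPM).

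The response to a challenge differed between experiments for 5 members by the test of the difference. Western diet minus CCl4, on the log2 scale, the difference was 2.371 for Col5a3, 2.128 for Col27a1, 1.196 for Efemp1, 1.184 for Col14a1 and -1.133 for Fn1. CCl4 minus hepatectomy, it was -2.37 for Col5a3. The CCl4 and olive oil livers enter all of these values.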

How the results depend on the processing

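No value that was called, in the main fit or in an alternative, reversed its direction between them. A change of sign in a value called in neither was not counted. With a fold threshold of 1.5, 22 members were called on Western diet in place of 38. Without day 3 wild-type livers 12 and 14, 11 were called after hepatectomy in place of 18, with Col1a2, Col5a1, Col6a1, Lamb1, Fbn1, Fbln2, Lum and Postn lost and Col5a3 gained. Without CCl4 wild-type livers 4 and 34, 2 members differed between Western diet and CCl4 in place of 5. With library totals as the scale, 2 members differed between CCl4 and hepatectomy in place of 1, Fn1 being gained. Leaving out each liver in turn gave 37 to 40 calls on Western diet, 20 to 24 after CCl4, 13 to 20 after hepatectomy, 4 to 5 between Western diet and CCl4, 1 to 2 between CCl4 and hepatectomy, and 0 in the other 4 comparisons. The 2 calls between CCl4 and hepatectomy came without CCl4 liver 7 (Fn1 gained), day 3 liver 12 (Fbn1 gained) or day 0 liver 14 (Col27a1 gained). The lowest hepatectomy count came without day 3 liver 12. After hepatectomy, 25 members were called with no filter on low counts (Col5a3, Col6a2, Col6a3, Col15a1, Hspg2, Thbs1 and Tnc gained), 15 with robust dispersion and 17 by DESeq2. Of the values for single members, 9203 kept their side of the threshold, 52 passed it only under the alternative and 103 no longer passed it. The cause of these changes was not tested.

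Day 0 and day 3 livers of hepatectomy share mouse numbers, and the labels do not say whether they came from the same animals. The correlation of their deviations from the group means was 0.106, 0.048, -0.011, -0.044 and 0.074 for numbers 16, 12, 13, 14 and 15. Such correlations cannot tell whether the animals were the same, and the main test did not use the numbers as a pairing. With the mouse number as a replicate block, 20 members were called in place of 18 (Col6a2 and Col6a3 gained), and livers 16 and 15 correlated best with their own number. With the same block for these livers in the joint fit, added after the data were seen, 1 member again differed between CCl4 and hepatectomy and 0 between Western diet and hepatectomy. In the other comparisons the groups of an experiment share no mouse number, so no block was fitted.

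Depth was lowest in the hepatectomy and CCl4 libraries, where Col8a1 and Mfap4 did not pass the filter, nor did Vcan, Thbs1 and Tnc after hepatectomy. With no filter, Thbs1 and Tnc were called after hepatectomy, and Vcan, Col8a1 and Mfap4 were not. Index and time after hepatectomy cannot be told apart.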
